A study of Homo sapiens with 15 samples.

Results

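The interferon-stimulated genes examined here are a set of 42 genes, listed by symbol as genes that cells switch on in response to interferon, and all 42 were found among the 57820 gene identifiers of the count table. All 42 were also among the 28793 genes tested, with an average of at least 10 counts per library each. RNA-seq was performed on A673 cells, a Ewing sarcoma line, in 5 conditions with 3 libraries each, and every condition shares the same line and the same selection, puromycin at 2 μg/mL and then hygromycin as well, at 400 μg/mL. iLuc cells carry a control shRNA, directed at luciferase, with an empty vector, and keep the endogenous EWS/FLI fusion (endo-EF). In iEF cells the shRNA is directed at the fusion, and the vector is again empty. WT-EF, Δ22 (labelled del22) and DAF cells received the same shRNA as iEF cells and a cDNA. In that order, the cDNA was of wildtype EWS/FLI, of EWS/FLI without its EWS domain, or of EWS/FLI with tyrosines replaced by alanine. In DAF these are tyrosines in the amino-terminal part of the EWS domain, and other tyrosines of that domain are kept. Cells were transduced with the shRNA on day 1 and with the retroviral cDNA on day 5, and they were kept in selection to day 16. The study's scheme of a replicate starts with the transduction, but the labels do not tie these libraries to separate transductions, so p-values measure the spread between these libraries, part of which may be technical. All libraries are of selected populations of a single line, and in such bulk RNA more cells that express a gene and more RNA per cell cannot be told apart.

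Interferon-stimulated genes form the antiviral program of nearly every cell type. Cytoplasmic sensors of viral RNA such as RIG-I and MDA5 signal through IRF transcription factors to induce type I interferon, and interferon at its receptor activates JAK kinases, which phosphorylate transcription factors. The factor ISGF3, of which STAT2 and IRF9 are parts, binds the interferon-stimulated response element (ISRE) in promoters, and many of the induced genes encode parts of the same pathway.

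The promoters of the set are shown first because its members moved together in the libraries. RefSeq promoter windows (GRCh38.p14, 250 bases before to 50 bases after a start site) were found for 34 of the 42 genes, with 8 not matched (MX2, IFIT2, OAS2, OASL, DHX58, IRF7, USP18 and TRIM22). The core of an ISRE, spelled GAAA, then any NN, then GAAA, was searched on both strands and was found in the windows of 23 of the 34 genes, or 67.6%, against 4.38% of all 27305 genes with a window. The letters TTCNNNGAA, a gamma-activated site, were held by 12 of the 34 genes, against 9.38% of all genes. In 6 windows of the set a match to each of these motifs shared bases, and in 4 windows neighbouring ISRE cores did. A match is a description of the letters, not of binding. The 200 bases before the start site of 5 genes are given below, 5′ to 3′ in the direction of transcription, with ISRE cores in capitals. IFIT1 and ISG15 are widely used markers of the response, IFI27 is a gene of wide range here, and SAMD9 and SAMD9L are the neighbours that were higher in DAF cells.
IFIT1: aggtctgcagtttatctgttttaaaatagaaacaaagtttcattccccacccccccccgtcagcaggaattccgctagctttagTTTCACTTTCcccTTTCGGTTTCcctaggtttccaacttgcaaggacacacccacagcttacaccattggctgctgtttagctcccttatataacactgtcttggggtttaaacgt
ISG15: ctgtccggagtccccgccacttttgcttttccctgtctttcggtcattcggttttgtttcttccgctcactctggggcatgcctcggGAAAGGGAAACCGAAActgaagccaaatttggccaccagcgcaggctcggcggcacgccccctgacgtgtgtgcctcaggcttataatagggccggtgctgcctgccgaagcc
IFI27: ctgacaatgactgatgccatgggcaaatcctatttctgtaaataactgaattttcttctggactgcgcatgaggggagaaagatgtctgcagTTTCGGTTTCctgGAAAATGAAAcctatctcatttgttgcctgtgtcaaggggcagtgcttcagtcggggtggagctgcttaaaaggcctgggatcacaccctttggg
SAMD9: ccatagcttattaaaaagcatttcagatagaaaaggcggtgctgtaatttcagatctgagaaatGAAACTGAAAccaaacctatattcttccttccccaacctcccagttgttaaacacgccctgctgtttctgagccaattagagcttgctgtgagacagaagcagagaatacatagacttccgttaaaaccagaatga
SAMD9L: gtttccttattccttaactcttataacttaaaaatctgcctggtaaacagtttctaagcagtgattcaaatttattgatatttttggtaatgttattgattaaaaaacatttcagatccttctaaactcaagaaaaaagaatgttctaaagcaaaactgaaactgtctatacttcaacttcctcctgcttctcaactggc

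In GRCh38.p14 these stretches are chr10:89392423-89392622 (plus strand) for IFIT1, chr1:1013297-1013496 (plus) for ISG15, chr14:94110536-94110735 (plus) for IFI27, chr7:93117980-93118179 (minus) for SAMD9 and chr7:93148386-93148585 (minus) for SAMD9L. The cores of IFIT1 read GAAAGTGAAA and GAAACCGAAA on the opposite strand and begin 116 and 103 bases before the start site. Those of ISG15 overlap and begin 113 and 107 bases before it. Those of IFI27 begin 108 and 95 bases before the start site used here, and 187 and 174 bases before the other of its 2 start sites. SAMD9 has 1 core, 136 bases before its start site, and the window of SAMD9L holds no match to these letters.

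Total counts per library ranged from 28659475 to 41859880. FLI1, whose 3′ part belongs to the fusion, had 1570 to 1757 counts in iLuc libraries and 459 to 526 in iEF libraries, and 579 to 703, 833 to 1263 and 630 to 894 counts in WT-EF, Δ22 and DAF libraries. These are raw counts, not scaled for library size, and reads of the endogenous fusion and of a cDNA cannot be told apart in them. They therefore do not measure how strongly a construct was expressed. Markers of the Ewing sarcoma line (a list of 7 genes) summed to between 942 and 987 CPM (counts scaled to a common library size by TMM) in iLuc libraries and between 87.2 and 113 in iEF libraries. CD99, among them, had at most 3 counts in any library, so the sums rest on the other genes. Whether reads of CD99 were lost in alignment or counting was not tested, so its expression cannot be read from this count. Of 6 leukocyte markers, CD3E had at most 1 count in any library, and the list summed to at most 4.86 CPM in any library, with CD14 the most abundant at up to 110 counts in DAF replicate 3.

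The set made up 0.0516% to 0.0586% of counts in iLuc libraries, 0.163% to 0.348% in iEF libraries and 0.0919% to 0.136% in WT-EF libraries. In the Δ22 libraries it made up 0.151%, 0.212% and 0.818%, and in the DAF libraries 0.172%, 0.211% and 0.483%. The high value in each of the last 2 conditions is that of replicate 3. Δ22 replicate 3 was the highest of its condition for 42 of 42 genes, at a median of 4.57 times the mean of the other 2 libraries, and the highest of all 15 libraries for 38 genes. DAF replicate 3 was likewise the highest of its condition for 42 of 42 genes, at a median of 2.84 times the other 2, and the highest of all libraries for 3 genes (SAMD9L, GBP1 and IFITM3). iEF libraries were uneven as well, with replicate 2 the highest of the 3 for 41 genes, at a median of 1.77 times the other 2, and replicate 3 the lowest for 34. The main counts of the set below are given with and without these libraries.

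**Figure D1:**
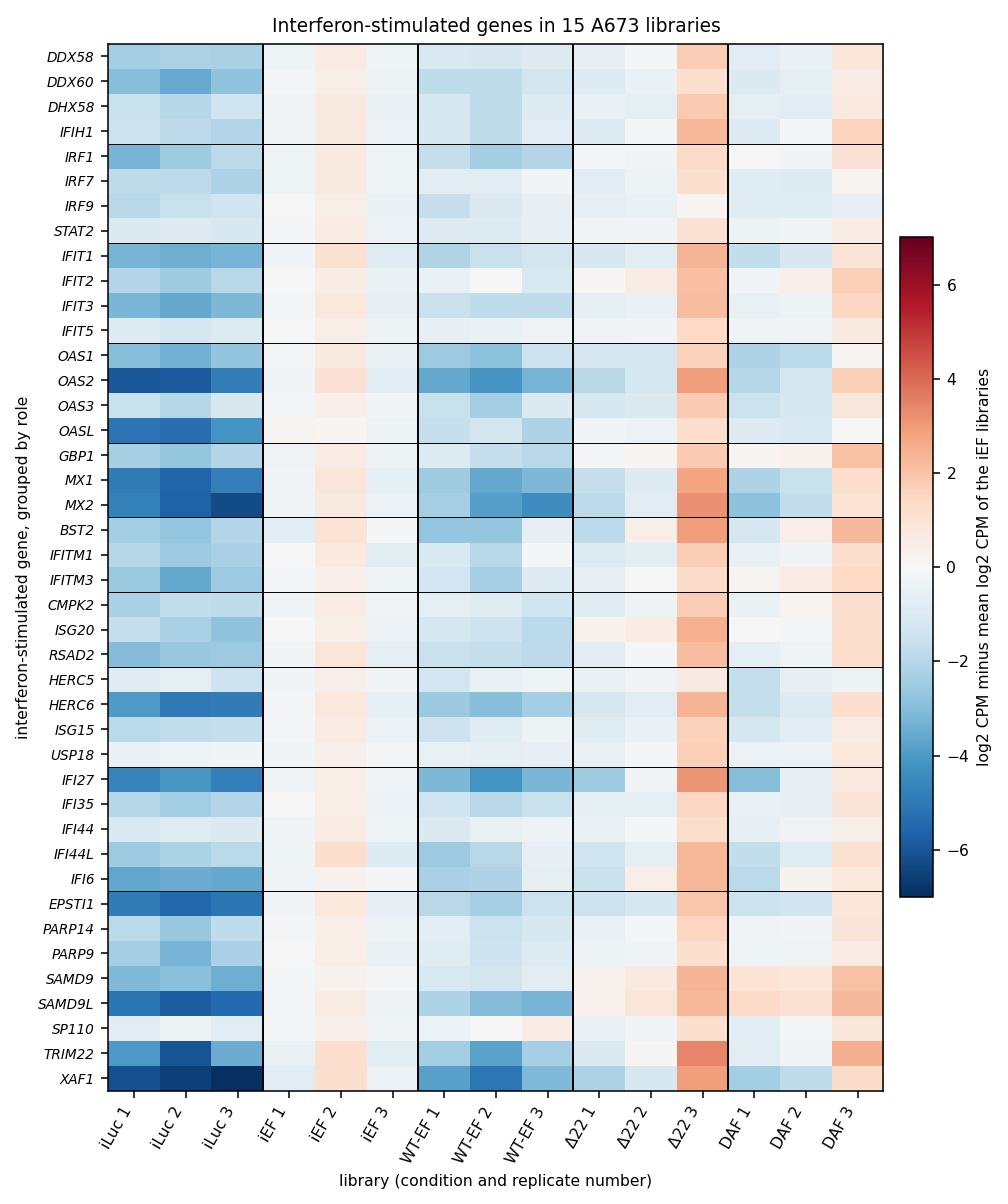
Level of each of the 42 interferon-stimulated genes (rows, grouped by role) in each of 15 libraries (columns), as log2 CPM minus the mean log2 CPM of the 3 iEF libraries, with blue for lower and red for higher. The iLuc columns are the bluest, the WT-EF columns are paler, and the columns of Δ22 replicate 3 and DAF replicate 3 are red for nearly every gene, unlike replicates 1 and 2 of the same conditions.

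The comparison of iLuc with iEF addresses how these genes differ between cells that keep endo-EF and cells depleted of it. These conditions also differ in the shRNA, so an effect of the shRNA itself cannot be told apart from that of the depletion. With endo-EF present, the interferon-stimulated genes were lower almost throughout. Of 42 genes, 40 were lower in iLuc than in iEF cells (95.2%, against 22.1% of all genes tested) and 0 were higher (against 19.5% of all genes tested), by the quasi-likelihood test of edgeR at an adjusted p (Benjamini-Hochberg) under 0.05. At an unadjusted p under 0.05 the counts were also 40 and 0, and DESeq2's Wald test gave 40 lower and 0 higher. The median log2 fold change of the set was −2.62, with values from −7.36 to −0.38, beside a median of 0.04 over all genes. For 41 of 42 genes the iLuc and iEF libraries did not overlap, and within each of the 3 replicate sets all 42 genes were lower in iLuc. For this and the later counts of genes without overlap, the share over all genes tested was not counted, so they are descriptions only. The set medians were −2.16, −3.25 and −1.83. Without replicate 2 of all conditions the number of lower genes fell to 26, and without any single library it lay between 33 and 41. Of the 40 genes, 26 passed under each of 26 alternatives, and none turned its direction.

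The RNA sensors were all lower in iLuc cells, 4 of 4. DDX58, which encodes RIG-I, stood at 28.8, 32.0 and 30.9 CPM in the iLuc libraries and at 122, 218 and 122 CPM in the iEF libraries. All iLuc values lay well under the lowest iEF value, and the fitted log2 fold change was −2.35 ± 0.42 (SE, edgeR adjusted p = 0.000333). DDX60, a helicase that aids these sensors, changed by −3.20 ± 0.40, and IFIH1 (MDA5) and DHX58 (LGP2, a regulator of both) by −1.86 ± 0.59 and −1.84 ± 0.52. The transcription factors and transducers of the pathway were lower in 4 of 4 cases, IRF1 by −2.64 ± 0.40, IRF7 by −1.99 ± 0.40, IRF9 by −1.69 ± 0.29 and STAT2 by −1.08 ± 0.28. IRF9 had the fewest counts of the set, 54.5 per library on average.

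Among antiviral effectors the IFIT proteins, which bind viral RNA ends, and the OAS enzymes, whose oligoadenylates activate RNase L, were lower in 4 of 4 cases each. IFIT1 had 8.96, 7.94 and 9.07 CPM in iLuc libraries and 75.3, 181 and 47.5 CPM in iEF libraries. OAS2 was near the lower end of what these libraries can measure in iLuc cells, at 0.214, 0.224 and 0.448 CPM, against 11.1, 26.1 and 7.33 CPM in iEF cells. The groups did not overlap for either gene, and the log2 fold changes were −3.66 ± 0.74 for IFIT1 and −6.43 ± 1.16 for OAS2. OASL, an OAS relative without the enzyme activity, changed by −4.90 ± 0.47, OAS1 by −3.29 ± 0.57, OAS3 by −1.74 ± 0.50 and IFIT5, the family member of least change, by −1.07 ± 0.31.

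The dynamin-like GTPases, which trap viral particles or compartments, were lower in 3 of 3 cases. MX1 stood at 1.53, 0.982 and 1.73 CPM in iLuc libraries and at 41.0, 84.5 and 29.8 CPM in iEF libraries. MX2 stood at 0.428, 0.224 and 0.149 CPM in iLuc libraries against 9.83, 17.4 and 8.35 CPM in iEF libraries. Both genes were apart between the conditions in every library, with log2 fold changes of −5.61 ± 1.03 and −5.87 ± 1.30, and GBP1, a guanylate-binding protein, changed by −2.48 ± 0.51. The membrane restriction factors BST2 (tetherin), IFITM1 and IFITM3 changed by −2.61 ± 0.71, −2.51 ± 0.58 and −2.99 ± 0.40, and all 3 passed the test. The nucleotide and nuclease effectors RSAD2 (viperin), ISG20 (an exonuclease) and CMPK2 (a nucleotide kinase) were lower by 2.99, 2.21 and 1.99 on the log2 scale.

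ISG15, a ubiquitin-like modifier, had 13.5, 15 and 15.5 CPM in iLuc libraries and 44.3, 73.5 and 36.6 CPM in iEF libraries. Its groups did not overlap, and its log2 fold change was −1.87 ± 0.43. Of the ligases HERC6 changed by −4.90 ± 0.87 and HERC5, which attaches ISG15 to proteins, by −0.94 ± 0.31. USP18, the protease that removes ISG15 and restrains interferon receptor signalling, did not pass the test (−0.38 ± 0.36, adjusted p = 0.436), with 20.3 to 24.6 CPM in iLuc and 24.3 to 35.8 CPM in iEF libraries.

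The 5 IFI genes, named for their induction by interferon, were lower in all 5 cases, from −4.75 ± 1.00 for IFI27 to −1.03 ± 0.29 for IFI44. IFI27 had 0.795, 1.18 and 0.746 CPM in iLuc libraries and 17.2, 28.4 and 16.9 CPM in iEF libraries. Of the remaining effectors 7 of 8 were lower. XAF1, a factor that promotes apoptosis, had the widest range of the set over the 15 libraries, 9.51 on the log2 scale, with 0.367, 0.281 and 0.209 CPM in iLuc and 15.3, 56.7 and 19.7 CPM in iEF libraries. Its groups were far apart in every library, with a log2 fold change of −7.36 ± 1.24. TRIM22, an antiviral ubiquitin ligase, changed by −5.01 ± 1.05, EPSTI1 by −5.54 ± 0.82, and PARP9 and PARP14, enzymes of ADP-ribosylation, by −2.75 ± 0.37 and −2.22 ± 0.41. SP110, a nuclear body protein, did not pass the test (−0.65 ± 0.32, adjusted p = 0.119), though its groups did not overlap.

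The comparison of WT-EF with iEF addresses how far the wildtype cDNA restores this state. Most of the set was lower with the wildtype cDNA too. Of 42 genes, 30 were lower in WT-EF than in iEF cells (71.4%, against 17.0% of all genes tested) and 0 were higher (against 12.9% of all genes tested) by edgeR. At an unadjusted p under 0.05 the counts were 36 and 0, and DESeq2's Wald test gave 28 and 0. The median log2 fold change was −1.62, beside −0.01 over all genes, and for 34 genes the groups did not overlap. Within replicate sets the medians were −1.33, −2.42 and −0.72, and all 42 genes were lower in sets 1 and 2 but 36 in set 3.

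The count of 30 depended on single libraries. It was 14, 9 and 38 without iEF replicate 1, 2 or 3, 12 without WT-EF replicate 2 and 17 without WT-EF replicate 3. It was 19, 3 and 40 without replicate 1, 2 or 3 of all conditions, 37 without Δ22 replicate 3 and DAF replicate 3, and 19 in the model with no replicate block.

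The largest decreases were those of XAF1, OAS2, IFI27 and MX2. XAF1 stood at 1.88, 0.766 and 3.01 CPM in WT-EF libraries (log2 fold change −4.49 ± 0.98, edgeR adjusted p = 0.00263) and OAS2 at 1.08, 0.740 and 1.36 CPM (−4.33 ± 0.96, adjusted p = 0.00319). Both lay between the iLuc and the iEF libraries with no overlap with either. IFI27 had 2.27, 1.11 and 2.21 CPM (−3.64 ± 0.91), MX2 2.27, 0.766 and 0.559 CPM (−3.37 ± 1.05), TRIM22 1.72, 0.687 and 1.86 CPM (−3.33 ± 0.91) and MX1 8.25, 3.91 and 5.38 CPM (−3.30 ± 0.88). Without replicate 2 of all conditions none of these 6 passed the test, with adjusted p up to 0.239 over the alternatives for MX2. IFI27 also lost the call without iEF replicate 1, MX1 and TRIM22 without iEF replicate 2 or WT-EF replicate 2, TRIM22 also without WT-EF replicate 3, and MX2 without any of these 4 libraries. MX2 and TRIM22 lost it on the ComBat-adjusted counts as well, and TRIM22 in the model with no replicate block. Of the 30 genes, SAMD9L and IRF1 passed under every one of 26 alternatives. SAMD9L stood at 12.6, 6.82 and 5.96 CPM in WT-EF libraries (−2.81 ± 0.46). SAMD9 stood at 58.4, 49.9 and 69.4 CPM, under every iEF library (−1.08 ± 0.35, adjusted p = 0.0311), and lost the call under 9 of 26 alternatives, among them leaving out iEF replicate 1 or 2 or WT-EF replicate 2 or 3.

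By role, 3 of 3 dynamin-like GTPases, 4 of 4 OAS genes, 4 of 5 IFI genes, 7 of 8 other effectors, 3 of 4 transcription factors or transducers, 2 of 3 membrane restriction factors and 2 of 3 nucleotide and nuclease effectors were lower in WT-EF cells. The IFIT family had 2 of 4 lower, the RNA sensors 2 of 4 and the ISG15 group 1 of 4. IRF1 changed by −2.09 ± 0.39. Genes that did not pass included ISG15 (−1.04 ± 0.42, adjusted p = 0.0810) at 18.2, 27.9 and 38.1 CPM, DDX58 (−1.10 ± 0.40, adjusted p = 0.0528) at 71.2, 68.2 and 80.4 CPM, and IFIT2 (−0.49 ± 0.46, adjusted p = 0.494) at 26.9, 36.4 and 17.8 CPM. The WT-EF libraries of ISG15 and IFIT2 overlapped those of iEF, and those of DDX58 did not.

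WT-EF and iLuc cells were compared directly. They too differ in the shRNA as well as in the source of the fusion, and these cannot be told apart. Here 11 genes were higher in WT-EF cells (26.2%, against 10.7% of all genes tested) and 0 were lower (against 9.03% of all genes tested) by edgeR, with 17 and 0 at an unadjusted p under 0.05 and 12 and 0 by DESeq2's Wald test. The median log2 fold change was 1.12, with medians of 1.23, 1.01 and 1.30 in the 3 replicate sets, and for 28 genes the groups did not overlap. The genes called were EPSTI1 (3.33 ± 0.82), OASL (3.23 ± 0.47), SAMD9L (2.72 ± 0.54), SAMD9 (2.03 ± 0.37), IFI6 (1.81 ± 0.56), IFIT2 (1.77 ± 0.49), PARP9 (1.56 ± 0.35), DDX60 (1.47 ± 0.38), IFITM3 (1.42 ± 0.38), IRF7 (1.33 ± 0.40) and DDX58 (1.25 ± 0.41). OASL and SAMD9 passed under each of 26 alternatives, and the other 9 lost the call under 1 to 10 of them. The 1 for SAMD9L was that of the ComBat-adjusted counts (adjusted p = 0.376), and the 10 were those of DDX58. OASL stood at 0.489, 0.449 and 0.985 CPM in iLuc and at 5.76, 7.21 and 3.99 CPM in WT-EF libraries, with every WT-EF library above every iLuc library. The count of 11 was 5 without WT-EF replicate 1, 5 or 4 without iLuc replicate 2 or 3, and 4, 3 and 27 without replicate 1, 2 or 3 of all conditions. It was 26 without Δ22 replicate 3 and DAF replicate 3, 27 in a fit of only the 6 libraries compared and 29 with no filter on low counts.

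**Figure D2:**
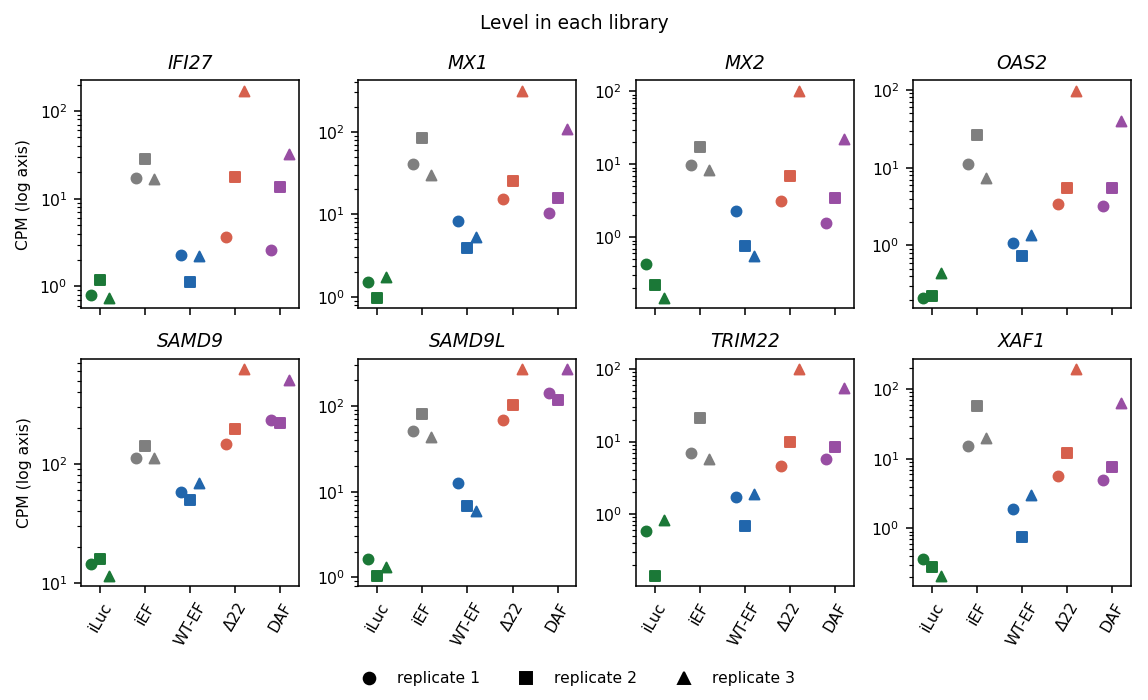
CPM (log axis) of 8 interferon-stimulated genes in each library, with 5 conditions on the horizontal axis and a marker shape for each replicate number. For XAF1, OAS2, MX1, MX2, TRIM22 and IFI27 replicate 3 of Δ22 is the highest point, and replicates 1 of Δ22 and DAF lie under all iEF points, while for SAMD9 and SAMD9L all DAF points lie above all iEF points.

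The comparison of Δ22 with iEF addresses what the fusion does without its EWS domain. No gene of the set passed the test in either direction. The counts were 0 higher (against 0.472% of all genes tested) and 0 lower (against 0.830% of all genes tested) by edgeR, and 0 and 0 by DESeq2's Wald test. At an unadjusted p under 0.05, 3 genes were higher (SAMD9, SAMD9L and ISG20) and 0 were lower. The median log2 fold change of 0.21 is an average over libraries that went opposite ways. In replicate set 1, 36 of 42 genes were lower in Δ22 than in iEF cells, with a median of −0.56, and in set 2, 38 of 42 with a median of −0.85. In set 3 all 42 genes were higher, with a median of 2.22. Without Δ22 replicate 3 the median was −0.45 and no gene passed. Without replicate 3 of all conditions it was −0.71 and 17 genes were lower. Without Δ22 replicate 1, 1 gene was higher, and with no filter on low counts 4 were.

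Δ22 replicate 3 exceeded every iEF library for the genes of widest range. OAS2 had 3.37, 5.40 and 97.8 CPM in Δ22 replicates 1, 2 and 3, XAF1 5.71, 12.1 and 195 CPM, and TRIM22 4.66, 9.88 and 100.3 CPM. MX1 had 15.2, 25.3 and 315 CPM, MX2 3.16, 6.83 and 102 CPM, and IFI27 3.63, 17.8 and 170 CPM. Replicates 1 and 2 of these genes lay under or within the range of the iEF libraries, and replicate 3 stood well above all of them. SAMD9 was the only gene of the set whose Δ22 and iEF libraries did not overlap, with 147, 197 and 630 CPM in Δ22 and 112, 142 and 112 CPM in iEF libraries. Its log2 fold change of 1.20 ± 0.36 did not pass the test (edgeR adjusted p = 0.124). Neither did that of SAMD9L, which had 69.5, 103 and 270 CPM in Δ22 libraries (1.17 ± 0.43, adjusted p = 0.222).

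The comparison of DAF with iEF addresses what remains of the fusion's activity after the tyrosine mutations. SAMD9 and SAMD9L were higher in DAF than in iEF cells, opposite to their direction with endo-EF and with WT-EF. These 2 of 42 genes were the only ones higher by edgeR (4.76%, a share near the 5.00% of all genes tested), and 0 were lower (against 6.19% of all genes tested). At an unadjusted p under 0.05 the lower genes were 3 (OAS1, HERC5 and IRF9), and DESeq2's Wald test gave 2 higher and 1 lower. The median of the set was −0.19, and the replicate sets again went opposite ways. In set 1, 36 of 42 genes were lower in DAF cells (median −0.53), in set 2, 39 (median −1.06), and in set 3, 40 of 42 were higher (median 1.36).

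Without replicate 3 of all conditions 24 genes were lower and 2 higher in DAF cells, with a median of −0.77. Without Δ22 replicate 3 and DAF replicate 3 alone, 13 were lower and 2 higher, with a median of −0.62. Without DAF replicate 3 alone the counts were 0 and 0. The number lower was 3 without iEF replicate 3 and 1 without iLuc replicate 3, and the number higher was 0 without iEF replicate 1, iEF replicate 3 or DAF replicate 1 and 1 without DAF replicate 2 or WT-EF replicate 2.

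SAMD9 and SAMD9L, neighbouring genes on chromosome 7 (GRCh37, chr7:92728826-92747336 and chr7:92759369-92777698, both on the minus strand), encode related cytoplasmic proteins that restrain viral replication and cell growth. SAMD9L stood at 143, 119 and 273 CPM in DAF libraries and at 50.9, 81.9 and 43.5 CPM in iEF libraries. SAMD9 stood at 236, 220 and 504 CPM in DAF libraries and at 112, 142 and 112 CPM in iEF libraries. For both genes every DAF library lay above every iEF library, replicates 1 and 2 included, and the log2 fold changes were 1.48 ± 0.43 (edgeR adjusted p = 0.0375) and 1.26 ± 0.35 (adjusted p = 0.0330). Within replicate sets the log2 differences were 1.49, 0.54 and 2.65 for SAMD9L and 1.07, 0.63 and 2.17 for SAMD9. Of 26 alternatives, 9 lost the call for SAMD9L, with adjusted p up to 0.188, and 7 lost it for SAMD9, with adjusted p up to 0.161, and none turned its direction. The losses for both followed leaving out iEF replicate 1 or 3, DAF replicate 1 or 3, or replicate 1 or 2 of all conditions. For SAMD9 the model with no replicate block was also among them, and for SAMD9L the ComBat-adjusted counts and leaving out DAF replicate 2 or WT-EF replicate 2. In Δ22 libraries SAMD9L stood at 69.5, 103 and 270 CPM and SAMD9 at 147, 197 and 630 CPM. Their fitted changes against iEF were above 0 in Δ22 cells too, but did not pass the test there. DAF was not tested against Δ22, so a trait particular to DAF cells is not shown.

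IFITM3 was the only other gene above iEF in all 3 sets, by 0.26, 0.25 and 1.68 on the log2 scale, and did not pass the test (0.64 ± 0.35, adjusted p = 0.307). GBP1, IRF1 and ISG20 were above iEF in sets 1 and 3 and below it in set 2. OAS1 went farthest the other way, with 13, 15.4 and 64.9 CPM in DAF and 52.3, 87.9 and 40.8 CPM in iEF libraries. Its replicates 1 and 2 lay under every iEF library and replicate 3 within their range, so the groups overlapped, and its log2 fold change of −1.52 ± 0.53 did not pass the test (adjusted p = 0.0891). MX1 had 10.4, 15.9 and 107 CPM in DAF libraries, MX2 1.55, 3.43 and 22 CPM, XAF1 4.96, 7.52 and 64.0 CPM, and OAS2 3.23, 5.49 and 40.1 CPM. In each of these, replicates 1 and 2 lay under all 3 iEF libraries and replicate 3 above all 3. TRIM22 (5.66, 8.34 and 54.4 CPM) and IFI27 (2.60, 13.6 and 32.1 CPM) also had their highest value in replicate 3.

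**Figure D3:**
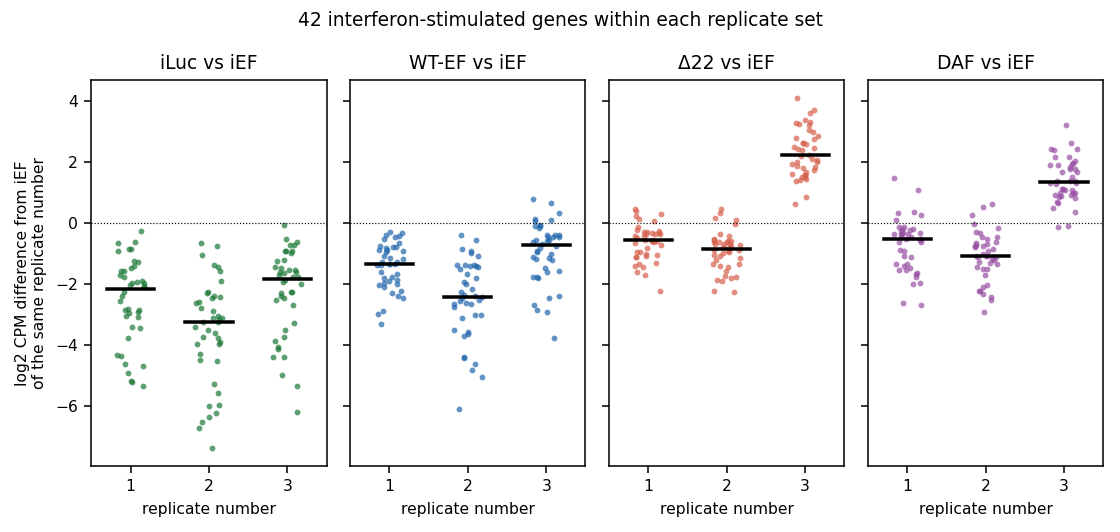
Difference in log2 CPM between a condition and iEF of the same replicate number, for each of the 42 genes (points) with the median (line), in 4 panels for iLuc, WT-EF, Δ22 and DAF. The iLuc medians are −2.16, −3.25 and −1.83, while the Δ22 and DAF medians are under 0 for replicates 1 and 2 and at 2.22 and 1.36 for replicate 3.

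WT-EF and DAF cells were compared directly, as the test of the difference between the constructs. Of 42 genes, 19 were lower in WT-EF cells (45.2%, against 16.1% of all genes tested) and 0 were higher (against 12.4% of all genes tested) by edgeR, with 26 and 0 at an unadjusted p under 0.05 and 20 and 0 by DESeq2's Wald test. The median log2 fold change was −1.26, and the medians of the replicate sets were −0.52, −1.26 and −2.23. Without Δ22 replicate 3 and DAF replicate 3 the median was −0.75, with 18 genes lower. For 26 genes the groups did not overlap. SAMD9L had the largest difference (−4.29 ± 0.48, adjusted p = 1.84e-05), with SAMD9 at −2.35 ± 0.37 (adjusted p = 0.000237), and both passed under each of 26 alternatives, as did IRF1, GBP1 and IFITM3. TRIM22 (−3.39 ± 0.90), OAS2 (−3.25 ± 0.96), XAF1 (−3.07 ± 0.95), IFI27 (−2.62 ± 0.92), IRF1 (−2.27 ± 0.39), GBP1 (−2.28 ± 0.51) and IFITM3 (−2.21 ± 0.37) were among the others that passed. TRIM22, OAS2, XAF1 and IFI27 lost the call without WT-EF replicate 2, WT-EF replicate 3, DAF replicate 3 or replicate 2 of all conditions, and XAF1 and IFI27 also on the ComBat-adjusted counts. IFI27 lost it also without iLuc replicate 1 or 2, iEF replicate 1 or DAF replicate 2. HERC5 (0.14 ± 0.31) and SP110 (−0.01 ± 0.31) did not pass the test. The count of 19 was 5 without DAF replicate 3, 7 or 6 without WT-EF replicate 2 or 3, 30 without Δ22 replicate 3, 5 without replicate 2 of all conditions and 26 without replicate 3 of all conditions. It was 32 in a fit of only the 6 libraries compared and 37 with no filter on low counts.

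**Figure D4:**
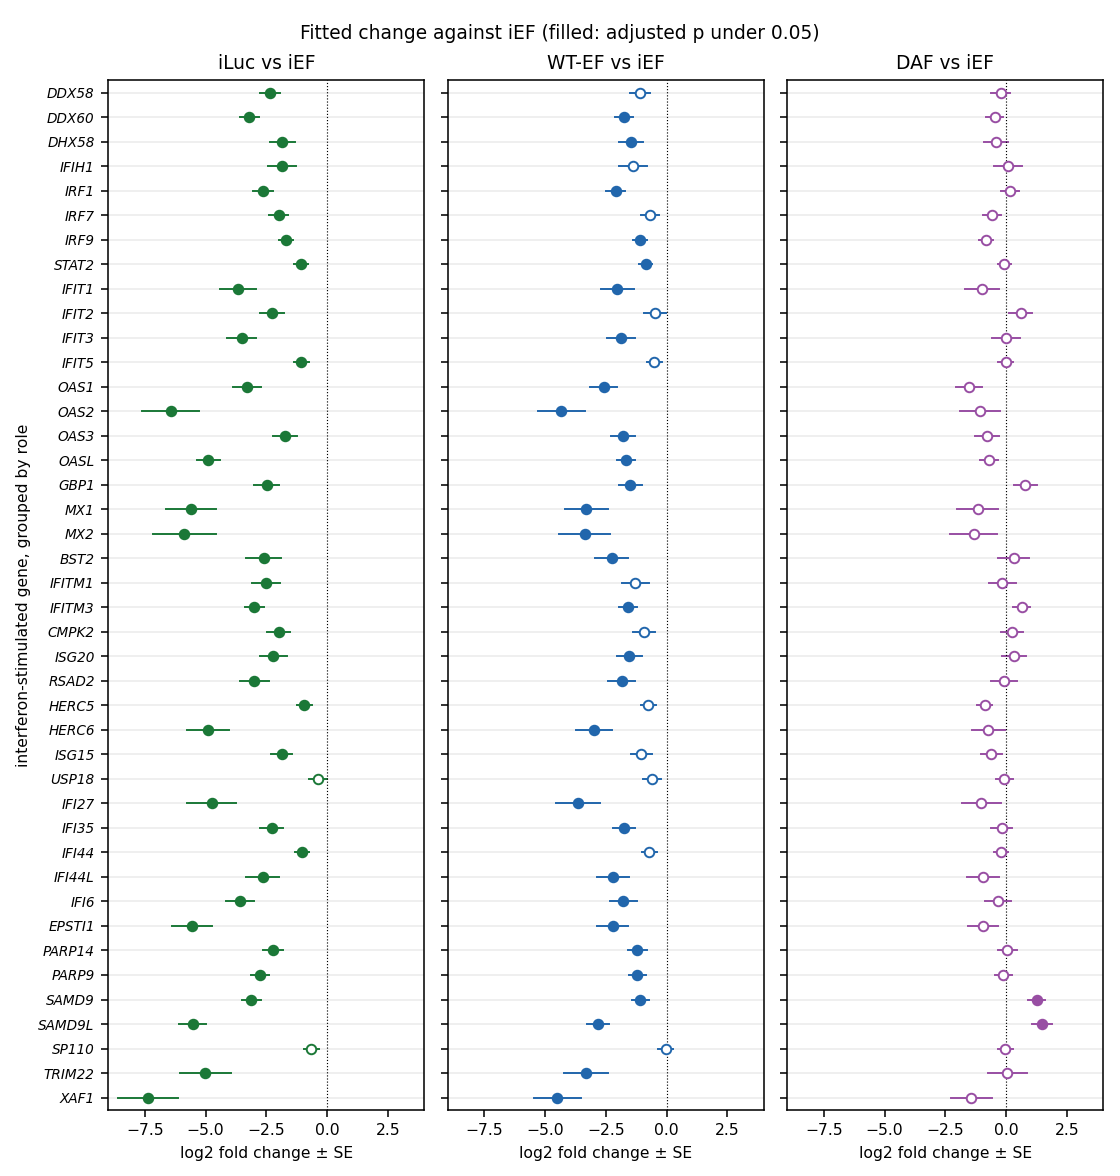
Fitted log2 fold change against iEF (horizontal axis, bar for 1 SE each way) of each of the 42 genes in iLuc, WT-EF and DAF cells, which share the same 3 iEF libraries. Filled points passed the test at an adjusted p under 0.05, which is 40 genes for iLuc, 30 for WT-EF and, for DAF, SAMD9 and SAMD9L on the higher side.

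Levels per length of annotated exons differed widely among the genes. The length was that of all annotated exons of a gene together, which can be longer than its transcripts. It was 936 bases for IFI6, 867 for ISG15, 14562 for MX2 and 11233 for OAS2, so levels of different genes compare only roughly. On the scale of reads per kilobase of exon (RPKM, mean of 3 libraries), IFI6, a small membrane protein, was at 190 in iEF cells and 15.9 in iLuc cells, and ISG15 at 59.4 and 16.9. MX2 and OAS2 were at 0.815 and 1.32 in iEF cells and at 0.0183 and 0.0263 in iLuc cells. Genes of narrow range included STAT2, SP110, IRF9 and HERC5, with differences between the highest and the lowest of 15 libraries of 2.11, 1.93, 2.26 and 2.29 on the log2 scale.

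The set moved together across the libraries. The Pearson correlation of each gene with the mean of the other 41, over log2 CPM in 15 libraries, was between 0.70 (HERC5) and 0.991, with a median of 0.951. After condition means were removed the median was 0.947 and the lowest value was that of IRF9, 0.661. These are descriptions, since the points share libraries, depth and conditions. Within conditions, Δ22 replicate 3 and DAF replicate 3 were each the highest library for 42 genes, and iEF replicate 2 for 41. Correlations without these libraries were not computed, so how far these values and those below rest on them was not tested. Outside the set, the 10 genes most alike to its mean among 17611 ranked included TRIM25 (r = 0.985), OGFR (0.975), DDX60L (0.975), TRAF1 (0.972), NINJ1 (0.970), ICAM1 (0.968), UBE2L6 (0.968), LAP3 (0.967) and SAMHD1 (0.967) over the same 15 libraries.

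Interferon transcripts themselves were scarce. Of 13 ligand genes, 3 had enough counts to be tested. By edgeR 1 was lower in iLuc and 1 in WT-EF than in iEF cells, against 22.1% and 17.0% of all genes tested. The call for WT-EF was lost without iEF replicate 1 or 2. In Δ22 and DAF cells 0 passed, against 0.472% higher and 0.830% lower, and 5.00% and 6.19%. Between WT-EF and DAF, 1 was lower in WT-EF cells by edgeR, against 16.1%, and 0 by DESeq2. With 3 genes these counts say little. IFNB1, the type I interferon that most cell types can make, had 0 counts in all 3 iLuc libraries, which allows up to 3 counts in each, and 7, 9 and 12 counts in iEF libraries. It had 0, 2 and 3 counts in WT-EF, 2, 9 and 47 counts in Δ22 and 3, 4 and 4 counts in DAF libraries. The 47 counts in Δ22 replicate 3 were the most in any library, while DAF replicate 3 had no more than DAF replicate 2. IFNG had at most 1 count in any library. The part of these transcripts in the levels above was not tested.

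Other genes of the pathway were taken from lists. Of 39 further interferon-stimulated genes tested, 31 were lower and 3 higher in iLuc than in iEF cells (median −1.66), against 22.1% and 19.5% of all genes tested. In WT-EF cells 24 were lower and 2 higher than in iEF cells (−1.22), against 17.0% and 12.9%, and the number lower was 13 without iEF replicate 2 and 8 to 31 over all fits without a replicate or library. In Δ22 cells 0 were lower and 0 higher by edgeR and by DESeq2, with 0 and 2 at an unadjusted p under 0.05 (median 0.19). In DAF cells 0 were lower and 2 higher by edgeR and by DESeq2, with 1 and 6 at an unadjusted p under 0.05 (0.07), and the 2 are a share near the 5.00% of all genes tested that were higher. Both lost the call without DAF replicate 3. Between WT-EF and DAF, 28 were lower and 2 higher in WT-EF cells, against 16.1% and 12.4% of all genes tested, and without DAF replicate 3 19 were lower.

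Of 14 receptor, kinase and factor genes, 7 were lower and 2 higher in iLuc than in iEF cells, the higher ones being JAK1 and IFNLR1, the latter a receptor chain for type III interferon. Over all genes tested 22.1% were lower and 19.5% higher. In WT-EF cells 5 of the 14 were lower and 1 higher than in iEF cells, against 17.0% and 12.9% of all genes tested. The 5 became 2 to 6 over the fits without a replicate or library. In DAF cells 1 was higher and 1 lower than in iEF cells, shares near the 5.00% and 6.19% of all genes tested. The higher one was JAK1, which passed under each of 26 alternatives. Of 14 nucleic acid sensing genes tested, 10 were lower in iLuc cells and 5 in WT-EF cells, against 22.1% and 17.0% of all genes tested. These counts were 5 to 10 and 3 to 8 over the fits without a replicate or library. The 1 of 14 nucleic acid sensing genes higher in DAF cells, a share near the 5.00% of all genes tested, was TMEM173. It encodes the DNA-pathway adaptor STING. It stood at 73.1, 72.5 and 85.7 CPM in DAF libraries and at 49.0, 49.6 and 54.0 CPM in iEF libraries. These libraries did not overlap (0.60 ± 0.13, edgeR adjusted p = 0.00995), and the call was lost without iEF replicate 1, DAF replicate 3 or replicate 2 of all conditions (adjusted p up to 0.135). Of 7 negative regulators of the pathway, 2 were lower in iLuc cells, a share near that of all genes tested (22.1%). They were the cytokine signalling inhibitors SOCS1 (−4.07 ± 0.42) and SOCS3 (−3.91 ± 0.22).

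The NF-kB response, which viral sensing also activates, was counted over 18 genes. Of these, 16 were lower in iLuc and 9 in WT-EF than in iEF cells, and 13 were lower in WT-EF than in DAF cells. The shares of all genes tested that were lower were 22.1%, 17.0% and 16.1%. The 9 became 5 without iEF replicate 2 and 14 without Δ22 replicate 3, and the 13 became 6 without DAF replicate 3. Against iEF, 0 changed in Δ22 or DAF cells by edgeR and by DESeq2, with 3 higher in Δ22 and 1 lower in DAF cells at an unadjusted p under 0.05. Over all genes tested 0.472% were higher and 0.830% lower in Δ22 cells, and 5.00% and 6.19% in DAF cells.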

How the data were processed

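RNA-seq counts of 15 libraries of A673 cells (5 conditions, 3 libraries each, grouped by the sample labels) were used. Per the study's methods and the submitters' processing notes, the authors aligned paired reads to hg19 with STAR (2.5.1b in the notes) and counted them on genes with htseq-count (intersection-strict), and deposited raw counts, whole numbers without normalization. The strand setting is not given in the sources used here, and exons of 15 of the 42 genes overlap those of another gene of the table (12 on the opposite strand), so their reads could be shared or dropped. Total counts ranged from 28659475 to 41859880. The authors also deposited counts adjusted by ComBat for 27002 genes (decimal values in other units), used only as an alternative, and a table of their own fold changes against iEF, standard errors and p-values, which was not used. Another 3 columns of the counts file belong to other samples and were not used.

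The 28793 genes with a mean of 1 count or more were fitted in R 4.3.3 with edgeR 4.0.16, by a quasi-likelihood model of all 15 libraries with condition and replicate number as a block, TMM normalization and Benjamini-Hochberg adjusted p under 0.05. The block follows the study's ComBat adjustment by replicate set. Deviations from the condition means were correlated with a median of 0.185 over 30 pairs with the same number and −0.0842 over 60 pairs with different numbers, over 13178 genes. The standard error is the fold change divided by the root of F. Replicates differed beyond counting noise, at 12.9 to 83.2 of chi-square per gene in 15 pairs. Limits from a count of 0 (3 counts) cover counting error only. CPM were scaled by TMM, and correlations used log2 CPM with a prior count of 2. Coordinates of genes are those of GENCODE v44 on GRCh37, and promoter sequences are RefSeq's on GRCh38.p14. DDX58 was matched through its newer symbol.

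The members and gene lists were chosen with earlier results of these data known. Values in every library are given for genes called against iEF (at most the 4 largest changes per comparison, with at least 10 counts on average), the 6 genes of widest range and genes called in opposite directions against iEF, and further genes were given after their values were seen. Alternatives were DESeq2 1.42.0 (its size factors, its Wald test, and that test on the ComBat-adjusted counts), other count filters, the model with no replicate block, fits restricted to the 6 libraries of a comparison, and fits that left out each replicate or library. Leaving out Δ22 replicate 3 and DAF replicate 3 together was added after seeing the data. In simulated counts with known changes in DAF against iEF, the edgeR analysis called 66 of 100 2-fold and 98 of 100 4-fold changes. It also called 7 unchanged genes. The changed genes were drawn from the more abundant ones, and no replicate effect or outlying library was simulated. A 2-fold change can thus be missed by this test. One gene outside the set is not reported here.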

Additional observations from a re-analysis of the deposited data

How the results depend on the processing

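No member's fold change that was called turned its direction under any of 26 alternatives. With no filter on low counts, 4 genes were higher in Δ22, 5 were higher and 14 lower in DAF than in iEF cells, 29 were higher in WT-EF than in iLuc cells and 37 lower in WT-EF than in DAF cells. In fits of only the 6 libraries compared the last 2 counts were 27 and 32, and 1 gene was lower in DAF than in iEF cells. DESeq2's Wald test gave 1 gene lower in DAF than in iEF cells, and on ComBat-adjusted counts 1 higher and 1 lower, with a median of 0.89 for WT-EF against iLuc. With no replicate block, 19 genes were lower in WT-EF than in iEF cells and 1 was higher in DAF cells, and the block moved no other count by over 1.5 times. Without Δ22 replicate 3 and DAF replicate 3, 13 genes were lower in DAF than in iEF cells and 26 higher in WT-EF than in iLuc cells. The cause of these changes was not tested.

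Over fits without a replicate or library, the genes lower in iLuc than in iEF cells numbered 26 to 42, lower in WT-EF than in iEF cells 3 to 40, and lower in WT-EF than in DAF cells 5 to 30, with a median log2 fold change of −1.74 to −0.89. Genes higher in WT-EF than in iLuc cells numbered 3 to 27, with a median log2 fold change of 0.81 to 1.45. Against iEF, 0 to 17 genes were lower and 0 to 1 higher in Δ22 cells, and 0 to 24 lower and 0 to 2 higher in DAF cells. The medians ran from −3.13 to −1.91 for iLuc and from −2.00 to −1.12 for WT-EF, while those of Δ22 (−0.71 to 0.93) and DAF (−0.77 to 0.30) changed sign.

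The 10 genes with a mean under 1 CPM in iLuc cells (XAF1, OAS2, MX2, TRIM22, EPSTI1, HERC6, OASL, IRF9, ISG20 and IFI27) rest on 5 to 42 counts in each iLuc library.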
